A study of Mus musculus with 12 samples.

Results

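Collagen chains are the polypeptides that wind, in groups of 3, into the triple helices of the extracellular matrix. Every gene in the colon count tables whose symbol had the form Col, number, a, number was taken, which gave 44 chains of 30263 listed genes. They fell into 11 fibrillar chains, 9 chains of basement membranes and their anchoring zone, and 24 other chains, namely 6 beaded filament, 9 fibril-associated, 3 network-forming, 4 transmembrane and 2 remaining chains. The colons came from 6 C57BL/6 mouse samples, 3 labelled WT and 3 labelled S1PR4 KO, where S1PR4 is a receptor for the lipid sphingosine-1-phosphate. Both groups had received the carcinogen azoxymethane (AOM, 10 mg/kg, by intraperitoneal injection at day 0). Both had also received dextran sulfate sodium (DSS, 0.5% in drinking water) from day 1 to 6, 21 to 27 and 47 to 52, and whole colons were taken at day 84. There was no untreated group, and the labels say neither how the KO was made nor the age of the mice. They call the samples triplicates without saying that these were separate animals, so p-values measure only the spread between these samples.

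Fibrillar collagens (types 1, 2, 3, 5, 11, 24 and 27) pack into the striated fibrils that carry tension in the submucosa and around muscle. Type 4 collagen forms the sheet-like network of basement membranes under epithelium and around vessels and muscle cells, with types 15 and 18 at its edge and type 7 in anchoring fibrils. Most chains are made by fibroblasts and other mesenchymal cells, and each chain must find its partners inside the cell before the helix can fold.

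The check of the targeted gene went against its label. S1pr4 counts were 61, 47 and 25 for the label WT (replicates 1, 2 and 3, the order used throughout) and 154, 162 and 118 for the label KO, higher where the gene should be lost, so WT and KO are label names in what follows. Total counts ran from 7304082 to 8652561 per library. Xist, the RNA of the inactive X chromosome, was at 545 CPM (library-scaled counts, with edgeR's TMM scaling) in WT replicate 1 and at 591 and 515 in KO replicates 2 and 3. It was at 6.75 CPM or below in WT replicates 2 and 3 and KO replicate 1, where Ddx3y, a Y-linked gene, was at 63.3, 68.6 and 81.1 CPM. The first 3 are called the Xist-high libraries and the other 3 the Y-linked libraries. All 9 colon epithelium markers were detected at levels that passed the filter, with sums of 1605, 1940 and 1792 CPM in WT and 1771, 1907 and 1786 in KO. WT replicate 1 stood apart with 887 CPM summed over 11 squamous epithelium markers, against 28.5 to 99.6 in the other 5 libraries, and its Krt5 and Krt4 were at 125 and 149 CPM.

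Fibrillar, type 4 and type 6 chains were the most abundant collagens of these colons, and 6 chains were close to absent. Levels of different genes are compared as CPM per kilobase of the longest annotated transcript, averaged over the 6 libraries. Col3a1, the single chain of type 3 collagen, was highest at 70.9 CPM per kb. Both chains of type 1 collagen followed closely, with Col1a2 at 56.05 and Col1a1 at 49.6. The main basement membrane chains Col4a1 and Col4a2 were at 50.7 and 41.6, and the type 6 chains Col6a1 and Col6a2, which form beaded microfibrils, at 49.0 and 44.7. A step lower stood Col18a1, the source of endostatin, at 31.7, Col16a1 at 22.8, Col5a2 at 22.4, Col5a1 at 22.3 and Col15a1 at 22.2 CPM per kb. Neighbours from Col1a2 down to Col4a2 differed by less than their spread, as in Col4a1 (52.3 ± 9.08 in WT and 49.1 ± 8.19 in KO, SD, n = 3 each) and Col1a1 (51.9 ± 11.5 and 47.35 ± 11.4). Col3a1 was at 73.7 ± 6.83 and 68.1 ± 10.1 CPM per kb.

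The order at the top rests on the length used. Divided by all annotated exon bases of the gene, the 5 highest were Col6a1 at 45.85, Col4a1 at 44.9, Col1a1 at 44.8, Col4a2 at 40.5 and Col3a1 at 40.2 CPM per kb, and Col1a2 was at 24.1. At the other end, the cartilage chain Col2a1 had 6 counts over all 6 libraries, Col19a1 had 7, Col6a6 had 8, the growth plate chain Col10a1 had 9, Col26a1 had 21 and Col9a1 had 31. These 6 did not pass the filter on low counts and were not tested, which left 38 chains of 17195 tested genes.

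Upstream sequence is given as a description only, and its relation to the levels of the chains was not tested. For 35 chains with 38 annotated starts in RefSeq (GRCm38.p6), the 250 bases before each start were searched on both strands for 3 common promoter motifs, of which none contains another. CCAAT occurred in 13 of the 38 windows (34.2%, against 33.8% of 32851 windows of all genes), TATAAA in 5 (13.2%, against 12.4%) and GGGCGG in 22 (57.9%, against 32.7%). Printed here, 5′ to 3′, are 150 bases directly upstream of the start for the most abundant (per kb) fibrillar, basement membrane, beaded filament and network-forming chains among those whose stretch holds no annotated exon. Capitals mark a motif, and CCGCCC is GGGCGG read on the other strand. They lie at chr1:45311388-45311537 (+ strand), chr4:47207862-47208011 (+), chr10:76623631-76623780 (- strand) and chr16:57754738-57754887 (-), in that order.
Col3a1: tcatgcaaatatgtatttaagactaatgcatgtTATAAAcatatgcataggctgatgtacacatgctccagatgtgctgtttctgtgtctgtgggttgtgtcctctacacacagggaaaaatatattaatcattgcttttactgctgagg
Col15a1: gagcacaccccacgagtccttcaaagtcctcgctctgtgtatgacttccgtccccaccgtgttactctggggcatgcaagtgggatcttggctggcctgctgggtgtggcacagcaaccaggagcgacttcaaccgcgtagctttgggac
Col6a2: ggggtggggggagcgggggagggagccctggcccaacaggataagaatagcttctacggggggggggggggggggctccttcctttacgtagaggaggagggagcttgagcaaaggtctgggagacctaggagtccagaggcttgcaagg
Col8a1: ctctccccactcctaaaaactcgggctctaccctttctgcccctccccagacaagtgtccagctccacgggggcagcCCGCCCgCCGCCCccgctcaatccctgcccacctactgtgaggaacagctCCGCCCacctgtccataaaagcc
Col3a1 held TATAAA beginning 117 bases before the start, and Col8a1 held GGGCGG at 73, 66 and 23 bases before it. The stretches of Col15a1 and Col6a2 held none of these letters. A match is a description of the letters and not a site.

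No collagen chain passed the test between KO and WT. With edgeR's quasi-likelihood test and Benjamini-Hochberg adjustment over all tested genes, 0 of 38 chains and 0% of all genes had an adjusted p under 0.05, and the smallest adjusted p of a chain was 0.829. At an unadjusted p under 0.05 stood 1 chain, Col9a3, against 5.06% of all genes. DESeq2 called 0 chains and 0.105% of all genes, with 1 chain at an unadjusted p under 0.05, against 5.35% of all genes. limma-voom called 0 chains and 0% of all genes, with 7 chains at an unadjusted p under 0.05, a smaller share than the 24.1% of all genes. In 0 of 38 chains did the 3 libraries labelled KO all lie above or all below the 3 labelled WT, a separation seen in 9.58% of all genes.

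The signs of the fitted differences leaned one way all the same. The log2 difference of KO minus WT was below 0 for 32 of 38 chains, against 51% of all genes, and its median was -0.26, against -0.0045 over all genes. It was below 0 for 8 of 10 tested fibrillar chains (median -0.16), for 9 of 9 basement membrane chains (median -0.31) and for 15 of 19 other chains (median -0.27). Chains of one tissue are not independent of each other, and the libraries behind these signs are described further on.

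**Figure D1:**
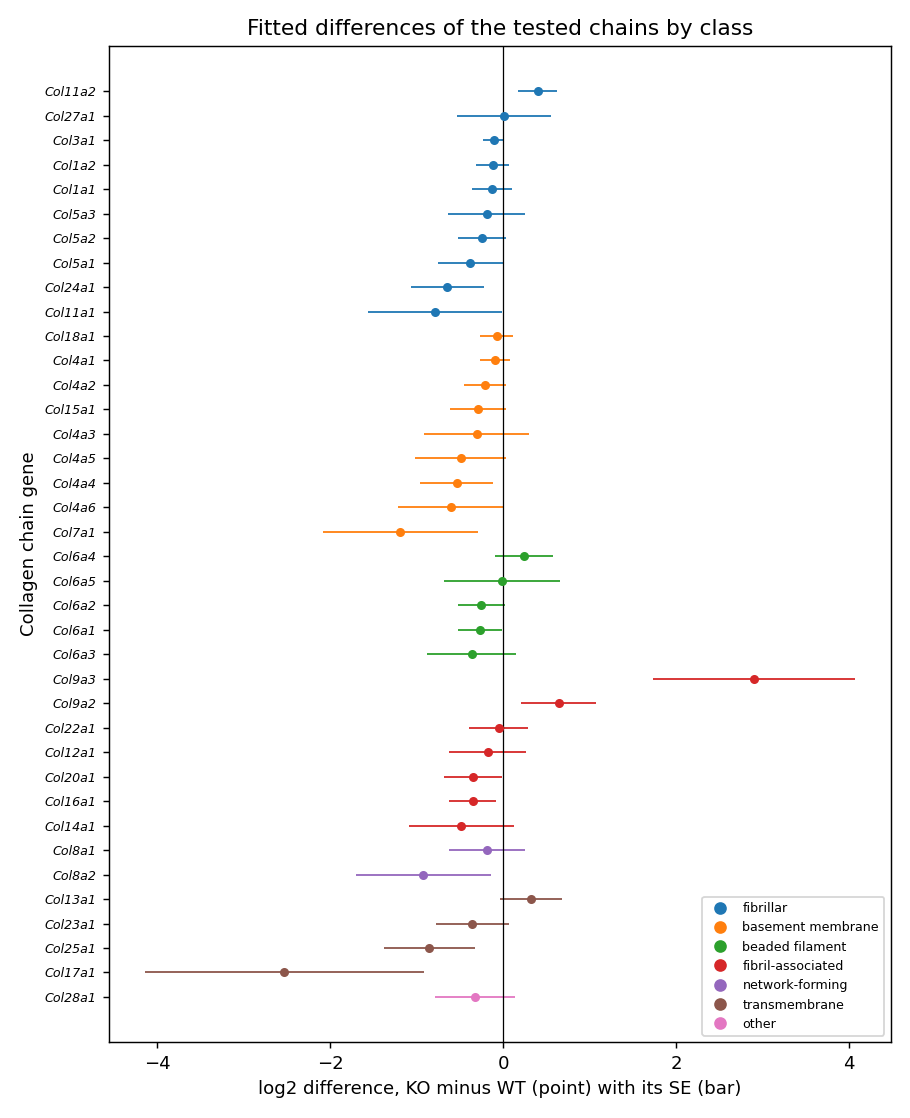
Fitted log2 difference of labelled KO minus labelled WT (x axis; points, with bars of 1 SE) for the 38 tested collagen chains (y axis), coloured by class, n = 3 libraries in each group. Most points lie left of 0 and most bars cross it or end close to it, with Col9a3 at 2.90 and Col17a1 at -2.53 as the extremes.

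The 3 abundant fibrillar genes had small fitted differences. Col3a1 was at 436, 366 and 428 CPM in WT and at 444, 350.5 and 343 in KO. WT replicate 2 lay with KO replicates 2 and 3, and KO replicate 1 was the highest of all 6. The log2 difference was -0.11 ± 0.13 (SE, 95% interval -0.42 to 0.19, edgeR adjusted p = 0.878). Col1a1 was at 367, 233 and 323 CPM in WT and at 339.5, 296 and 207 in KO, a log2 difference of -0.13 ± 0.23 (interval -0.70 to 0.43, edgeR adjusted p = 0.918). Its partner Col1a2 was at 362, 249 and 327 against 345, 282 and 233 CPM, a difference of -0.13 ± 0.19 on the log2 scale (edgeR adjusted p = 0.906). For both type 1 chains the groups overlapped over most of their range.

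Type 5 collagen sits inside type 1 fibrils and sets their width. Its chain Col5a1 was at 263, 139 and 236 CPM in WT and at 244, 145.5 and 99.5 in KO, and the log2 difference of -0.38 ± 0.38 was about the size of its SE (edgeR adjusted p = 0.870). Col5a2 and Col5a3 differed by -0.25 ± 0.28 and -0.19 ± 0.44 on the log2 scale. The type 11 chains went in opposite directions at low levels. Col11a1 was at 4.73, 1.605 and 2.001 CPM in WT and at 3.32, 1.06 and 0.409 in KO (log2 -0.79 ± 0.77). Col11a2, the fibrillar chain with the smallest p, was at 4.495, 3.88 and 4.001 CPM in WT and at 5.745, 6.08 and 4.493 in KO. KO replicate 3 lay just below WT replicate 1, so the groups overlapped at their edge, and the log2 difference was 0.40 ± 0.22 (edgeR unadjusted p = 0.124, adjusted p = 0.829). Col24a1 and Col27a1 differed by -0.65 ± 0.42 and 0.01 ± 0.54.

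The 9 basement membrane chains had fitted differences between -1.19 and -0.08 on the log2 scale, none beyond the spread between libraries. Col4a1 was at 389, 277 and 372 CPM in WT and at 373, 335 and 266 in KO (log2 -0.09 ± 0.17, edgeR adjusted p = 0.925). Col4a2, which joins 2 Col4a1 chains in the common type 4 trimer, was at 337, 220 and 306 CPM in WT and at 317, 249 and 180 in KO (log2 -0.21 ± 0.24, edgeR adjusted p = 0.881). In both genes KO replicate 1 lay between WT replicates 1 and 3, and KO replicate 3 was the lowest library.

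The minor type 4 chains spread more widely. Col4a5 and Col4a6, neighbours on the X chromosome that build the network around smooth muscle, moved together across libraries. Col4a5 was at 69.2, 29.8 and 66.5 CPM in WT and at 68.4, 28.7 and 20.3 in KO (log2 -0.50 ± 0.53). Col4a6 was at 39.4, 14.3 and 37.9 against 36.5, 14.95 and 8.58 CPM (log2 -0.61 ± 0.61). In both genes WT replicate 2 and KO replicates 2 and 3 formed the low end, with WT replicate 2 close to KO replicate 2 and KO replicate 3 below both. Col4a3 and Col4a4, chains known best from the kidney filter, were near the limit of detection. Col4a3 was at 1.89, 1.47 and 2.63 CPM in WT and at 3.19, 0.794 and 0.817 in KO (log2 -0.31 ± 0.61). Col4a4 was at 2.72, 1.47 and 2.13 against 2.04, 0.794 and 1.50 CPM (log2 -0.54 ± 0.42). Col15a1 and Col18a1, which carry heparan or chondroitin sulfate at the outer face of basement membranes, differed by -0.29 ± 0.32 and -0.08 ± 0.19.

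Type 6 collagen links basement membranes to the fibrils around them. Col6a1 was at 233, 178 and 247 CPM in WT and at 250, 162 and 134 in KO (log2 -0.27 ± 0.25, edgeR adjusted p = 0.860). Col6a2 was at 248, 189 and 280.1 against 281, 178 and 142 CPM (log2 -0.25 ± 0.27). Col6a3, the largest of these chains, was at 259, 119 and 239 CPM in WT and at 279, 122 and 77.2 in KO (log2 -0.37 ± 0.52). All 3 were highest in KO replicate 1 and lowest in KO replicate 3, a gap within 1 group of 3.61-fold for Col6a3. Col6a4 and Col6a5 differed by 0.24 ± 0.33 and -0.01 ± 0.67.

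**Figure D2:**
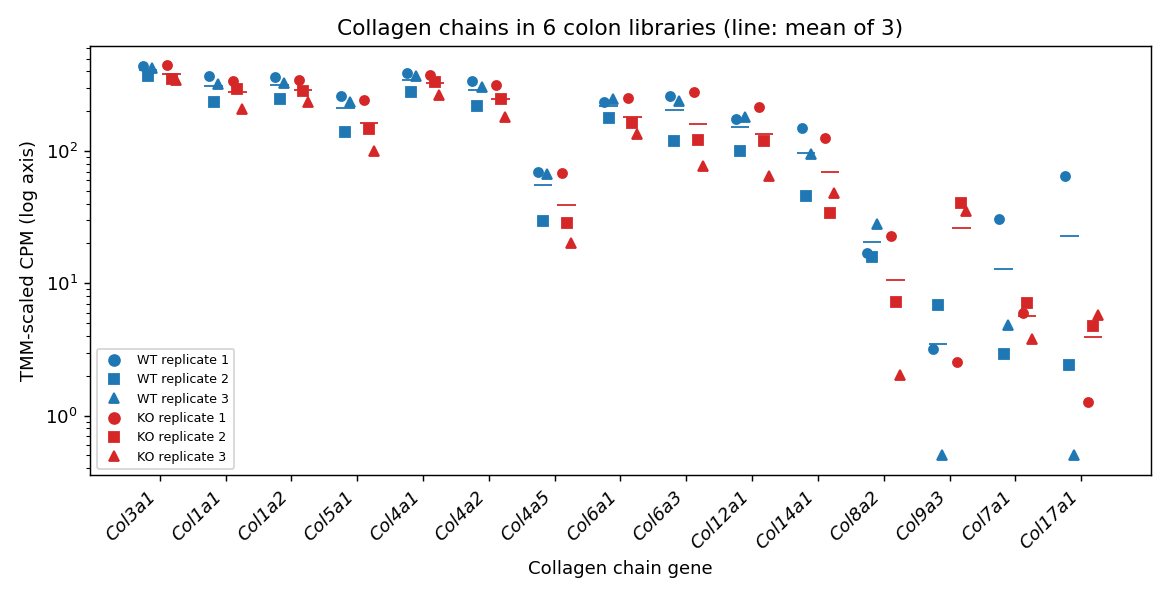
TMM-scaled CPM (y axis, log scale) of 15 collagen chains (x axis) in each of 6 colon libraries, blue for labelled WT and red for labelled KO, with the replicate number as the symbol and a line at each group's mean of 3. KO replicate 1 (red circles) sits with the high WT libraries in most chains, WT replicate 2 (blue squares) with the low KO libraries, and 1 library, WT replicate 1, sets the WT means of Col7a1 and Col17a1.

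Fibril-associated chains coat the surface of fibrils. Col16a1 was at 154, 104 and 142 CPM in WT and at 144, 96.2 and 72.2 in KO (log2 -0.36 ± 0.27). Col14a1, found with type 1 fibrils in mechanically loaded tissue, was at 150.3, 45.5 and 94.9 against 125.5, 33.9 and 47.9 CPM (log2 -0.49 ± 0.61). Col12a1, Col20a1 and Col22a1 differed by -0.18 ± 0.45, -0.35 ± 0.33 and -0.05 ± 0.34. Of the type 9 chains, Col9a2 was at 17.6, 11.9 and 9.003 CPM in WT and at 13.4, 14.3 and 32.5 in KO (log2 0.64 ± 0.43), and without KO replicate 3 the difference was 0.11.

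Col9a3, a chain of the type 9 collagen of cartilage, was the only one with an unadjusted p under 0.05. It was at 3.19, 6.82 and 0.500 CPM in WT and at 2.55, 40.6 and 35.1 in KO, so it was high in KO replicates 2 and 3 and low in KO replicate 1. The group values were 3.505 ± 3.17 CPM in WT and 26.1 ± 20.6 in KO (SD, n = 3 each). The log2 difference was 2.90 ± 1.17 (edgeR unadjusted p = 0.0467, adjusted p = 0.829, DESeq2 adjusted p = 0.531). On the log2(CPM + 0.5) scale it was 3.37 in the Xist-high set and 0.17 in the Y-linked set, and it was 1.64 with Xist-high or Y-linked status as a covariate. Its partner Col9a1 had 31 counts in all, and of 10 cartilage and bone markers only 2 passed the filter. The gene (chromosome 2, 180597790 to 180622189, GRCm38, + strand) shares 234 of its 3853 exon bases with Tcfl5 on the other strand, and Tcfl5 had 1 count in 6 libraries.

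Col7a1 and Col17a1 both anchor stratified epithelium, Col7a1 in anchoring fibrils and Col17a1 in the hemidesmosomes of basal keratinocytes, and both were high in WT replicate 1. Col17a1 was at 64.9, 2.41 and 0.500 CPM in WT and at 1.28, 4.76 and 5.72 in KO (log2 -2.53 ± 1.61, edgeR adjusted p = 0.829). Without WT replicate 1 the difference was 1.44. Col7a1 was at 30.9, 2.94 and 4.88 against 6.00, 7.14 and 3.81 CPM (log2 -1.19 ± 0.89, edgeR adjusted p = 0.843), and without WT replicate 1 it was 0.54. Both signs therefore turned when WT replicate 1 was left out, as part of 8 of 38 chains that turned in that fit. A link to the squamous markers was not tested. Of the 11 squamous markers 7 were tested and all 7 had a difference below 0 (median -2.29). WT replicate 1 was the highest library for all 7. In WT replicates 2 and 3 Krt4 was at 0.669 and 0.375 CPM, against 0.255, 7.54 and 8.85 in KO. Krt10, the squamous marker with the smallest p, was there at 9.23 and 7.63 CPM, against 6.51, 8.73 and 8.44 in KO.

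Mean levels of the remaining tested chains ran from 9.26 CPM per kb of the longest transcript for Col8a1 to 0.32 for Col25a1. The network chains of type 8, known from vessel walls, were Col8a1 at 46.0, 61.9 and 43.1 against 56.8, 58.1 and 17.8 CPM (log2 -0.19 ± 0.44) and Col8a2 at 16.9, 15.9 and 28.3 against 22.7, 7.27 and 2.04 CPM (log2 -0.93 ± 0.78). KO replicate 3 was the lowest library for both. Of the transmembrane chains, Col23a1 was at 47.8, 25.95 and 43.3 CPM in WT and at 47.6, 26.98 and 16.75 in KO (log2 -0.36 ± 0.42). Col25a1 was at 3.43, 1.87 and 3.001 against 2.68, 1.19 and 0.681 CPM (log2 -0.86 ± 0.53), and Col13a1 differed by 0.32 ± 0.35. Col28a1 was at 21.9, 9.76 and 9.88 CPM in WT and at 16.6, 9.655 and 6.81 in KO (log2 -0.33 ± 0.46).

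The summed level of the chains did not sort the libraries by label. Summed over all 44 chains, collagen was at 4484, 2881 and 4148 CPM in WT and at 4401, 3170 and 2434 in KO, or 3838 ± 845.5 against 3335 ± 993.8 (SD, n = 3 each). KO replicate 1 was as high as WT replicates 1 and 3, and WT replicate 2 was lower than KO replicate 2. The fibrillar and basement membrane sums had this same order of libraries, as did 8 of 38 single chains, with fibrillar sums of 1755, 1165 and 1604 against 1690, 1306 and 1027 CPM. Basement membrane sums were 1226, 777 and 1131 against 1143, 902 and 705.5 CPM. KO replicate 3 was the lowest library for 27 of 38 chains, a place it took for 23.9% of all genes. WT replicate 1 was the highest for 20 chains (18.3% of all genes) and KO replicate 1 for 10 (14.6%). Without KO replicate 3 the median log2 difference of the chains was -0.04 with 22 of 38 below 0, and without WT replicate 1 it was -0.06 with 24 of 38. Without KO replicate 1 the median was -0.64 with 33 of 38, and 13 chains then had an unadjusted edgeR p under 0.05, against 20.9% of all genes, with 0 chains and 0% of all genes at an adjusted one.

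Markers of stromal cells were high and low in much the same libraries. Fibroblast markers summed to 972, 707 and 888 CPM in WT and to 948, 703 and 657 in KO, with 9 of 10 tested genes below 0. Pericyte markers, of the cells that wrap small vessels, summed to 589, 365 and 543 against 596, 398 and 210.4 CPM, with 6 of 6 below 0. Smooth muscle markers summed to 2627, 1971 and 2259 against 2333, 1880.0 and 1241 CPM, with 10 of 10 below 0. Enteric neuron and glia markers summed to 303, 225.5 and 288 against 308, 177 and 135 CPM, and endothelial markers to 657, 474 and 619 against 656, 405 and 491. None of these genes passed edgeR's test. Colon epithelium markers had a median log2 difference of 0.03. Skeletal muscle markers were at 280.1 to 336 CPM in WT and 176 to 265 in KO, most of it Des, which the smooth muscle list also holds. Without Des they were at 51.9 to 108 and 20.2 to 33.1 CPM. Leukocyte markers were at 187 to 351 and 258 to 366, and adipocyte markers at 123 to 137 and 147 to 219. The skeletal muscle and adipocyte sums did not overlap between the labels. Among tested genes the groups did not overlap for 2 of 6 skeletal muscle markers (Acta1, Myh2) and 1 of 8 adipocyte markers (Cidec). Over all genes that share was 9.58%. Most of the adipocyte sum was Pparg (77.4 CPM in WT, 84.4 in KO) and Fabp4 (27.2 and 29.2), whose groups overlapped. In neither list did a gene pass edgeR's test. In whole colon, fewer cells of a type and less RNA per cell cannot be told apart, and the part of cell makeup in the collagen values was not tested.

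**Figure D3:**
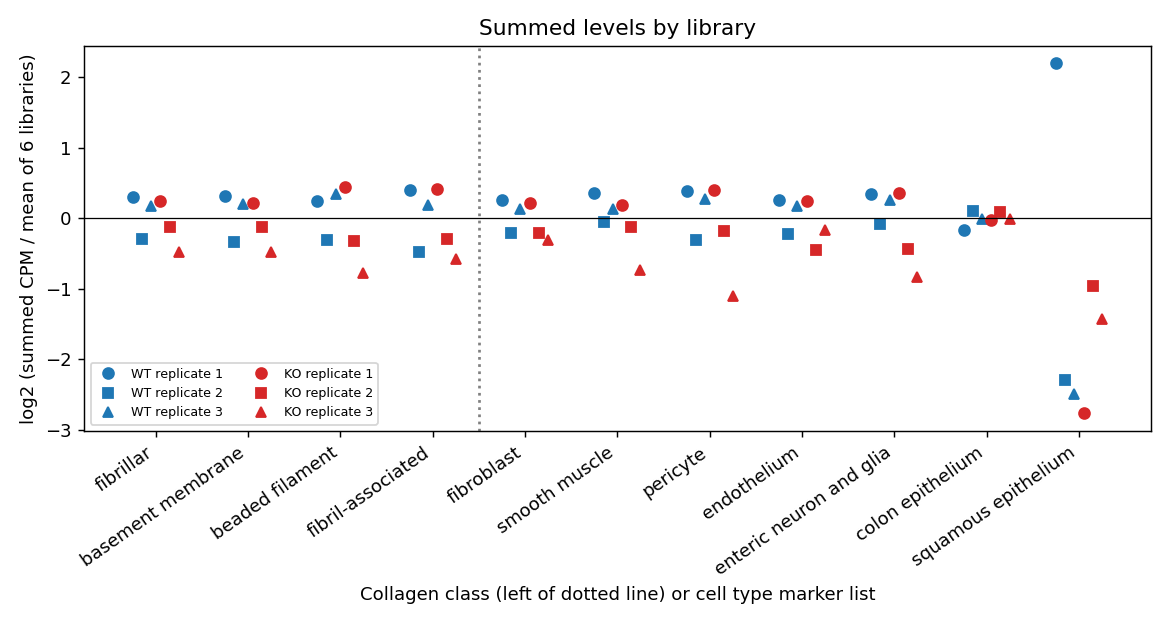
Summed CPM of 4 collagen classes (left of the dotted line) and 7 cell type marker lists, as log2 of each library's sum over the mean of 6 libraries (y axis), blue for labelled WT and red for labelled KO, with the replicate number as the symbol. The 4 collagen classes and the fibroblast, smooth muscle, pericyte and neuron lists share KO replicate 3 as their lowest library, and the squamous list stands out in WT replicate 1.

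Split by the Xist-high and Y-linked libraries, the collagen difference had opposite signs. Within the Xist-high libraries (1 WT, 2 KO) 33 of 38 chains were lower in KO, with a median of -0.83 on the log2(CPM + 0.5) scale, against 0.006 over all genes. Within the Y-linked libraries (2 WT, 1 KO) 1 of 38 chains was lower in KO, Col24a1, with a median of 0.35, against -0.0042 over all genes. Fibrillar, basement membrane and other chains had medians of -0.83, -0.87 and -0.73 in the first set and 0.39, 0.35 and 0.29 in the second. In 22 of 38 chains (57.9%) KO lay below WT in every Xist-high library and above WT in every Y-linked library, a pattern found in 20.2% of all genes. An edgeR fit with the interaction of genotype and status, added after the data were seen, called 0 chains and 0% of all genes, with a smallest adjusted p of 0.168 among chains. At an unadjusted p under 0.05 stood 13 chains, against 19.4% of all genes. Each set has 1 library of 1 label, so the set and the single library cannot be told apart.

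**Figure D4:**
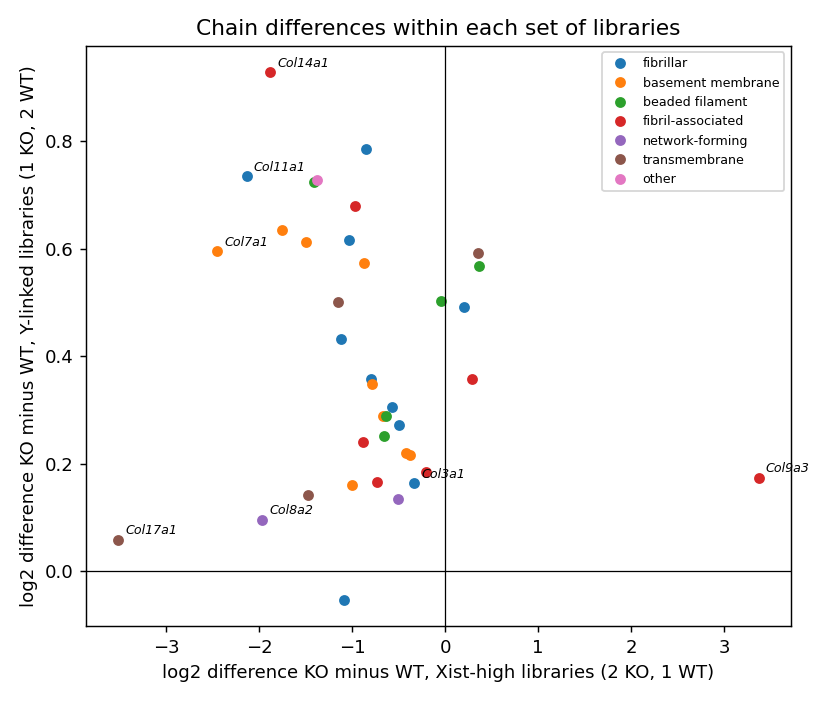
Log2 difference of labelled KO minus labelled WT for each tested collagen chain within the Xist-high libraries (x axis, 2 KO and 1 WT) and within the Y-linked libraries (y axis, 1 KO and 2 WT), on the log2(CPM + 0.5) scale, coloured by class. Of 38 chains, 33 lie left of 0 on the x axis and 1 lies below 0 on the y axis.

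Ratios between partner chains were compared as well. The ratio of Col1a1 to Col1a2, per kilobase of the longest transcript, was 0.883 ± 0.0352 in WT and 0.878 ± 0.0752 in KO (SD, n = 3 each). By all exon bases it was 1.85 ± 0.0740 and 1.84 ± 0.158. The length taken scales every library alike, so it changes the ratio itself and by construction cannot change the comparison between groups. Col6a1 to Col6a2 was 1.105 ± 0.0412 in WT and 1.095 ± 0.0337 in KO. The ratio of Col6a3 to Col6a1 varied more, at 0.450, 0.270 and 0.393 in WT and 0.4525, 0.306 and 0.2335 in KO. Col4a1 to Col4a2 was 1.12, 1.23 and 1.19 in WT and 1.15, 1.31 and 1.44 in KO, and Col3a1 to Col1a1 was 1.27, 1.67 and 1.41 against 1.39, 1.26 and 1.77. Every ratio overlapped between the groups.

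Several chains carried high counts for their length. The highest gene of each library had 0.919 to 0.973 counts per annotated exon base, or 1.36 to 1.67 where counts are divided by the longest transcript alone. Of the chains, 5 averaged more than 0.3 counts per exon base: Col6a1 at 0.360, Col1a1 and Col4a1 at 0.352, Col4a2 at 0.318 and Col3a1 at 0.314, among 1176 such genes. The highest single value was 0.472 for Col1a1 in WT replicate 1, and over the longest transcript alone Col3a1 reached 0.662. On that length Col1a2 and Col6a2 also averaged more than 0.3, at 0.439 and 0.351, which makes 7 chains. The ratio of the highest to the lowest library was 1.29 for Col3a1, 1.46 for Col4a1, 1.775 for Col1a1, 1.86 for Col6a1 and 1.88 for Col4a2. Whether counts at this level hold back the folds of these chains was not tested, and whether duplicate reads were removed is not given in the sources used here.

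Within each range of counts per exon base, the chains had a wider median spread between libraries than all genes. Above 0.3 the median ratio of highest to lowest library was 1.20 over all genes and 1.775 over the 5 chains. Between 0.1 and 0.3 it was 1.27 over all genes and 2.03 over 8 chains, and between 0.03 and 0.1 it was 1.47 and 3.35, again over 8 chains. From 0.01 to 0.03 it was 2.16 over all genes and 4.59 over 9 chains, and at 0.01 or below 3.28 and 3.725 over 8. Fitted log2 differences of the 5 chains above 0.3 ran from -0.27 to -0.09, and those of the 8 chains between 0.1 and 0.3 from -0.38 to -0.08.

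**Figure D5:**
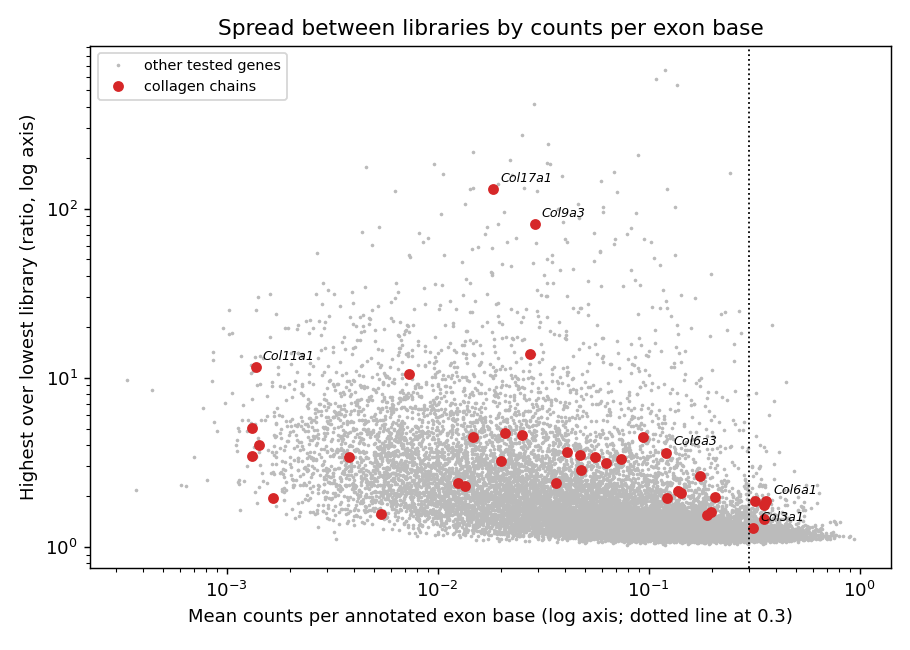
Ratio of the highest to the lowest of 6 libraries (y axis, log scale) against mean counts per annotated exon base (x axis, log scale) for tested genes with a count in every library, collagen chains in red and other genes in grey, with a dotted line at 0.3. The spread narrows to the right for all genes. The median of the chains lies above that of all genes in each range of counts per exon base. At 0.01 or below it does so by little (3.725 against 3.28), and Col11a2 there lies at 1.57. Right of the line lie 5 chains.

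Some chain genes overlap others, which matters where the strand setting of the counting is unknown. Col4a1 and Col4a2 lie head to head on chromosome 8 (11198423 to 11312826 on the - strand and 11312805 to 11449287 on the + strand, GRCm38) and share 22 exon bases, and Col4a3 shares 563 of its 9967 exon bases with C430014B12Rik on the other strand. On chromosome 10, which also holds S1pr4, lie 5 chains, with Col18a1 at 4.45 Mb from it, Col6a1 at 4.79, Col6a2 at 4.90, Col13a1 at 19.66 and Col10a1 at 47.11 Mb. Their differences ran from -0.27 to 0.32 among the 4 tested. The other chains ran from -2.53 (Col17a1) to 2.90 (Col9a3), a range too wide to set these 4 apart or not. A relation to the distance from S1pr4 was not tested.

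Genes that build, bind and break collagen gave no call either. Of the enzymes and chaperones of collagen folding and modification, 13 of 19 had a difference below 0 (median -0.165), led by smallest p by the lysyl hydroxylase Plod1 (log2 -0.23 ± 0.13) and the prolyl hydroxylase subunit P4ha3 (-1.05 ± 0.71). Of the enzymes that cleave procollagen and crosslink fibrils, 12 of 14 tested were below 0 (median -0.23), with the lysyl oxidase Loxl4 at -0.62 ± 0.42 and the procollagen N-proteinase Adamts2 at -0.62 ± 0.45. Proteoglycans and glycoproteins that bind fibrils had 13 of 16 below 0 (median -0.23), with Thbs2 at 0.78 ± 0.56 and osteoglycin (Ogn) at -0.36 ± 0.34. Other basement membrane components had 12 of 15 below 0 (median -0.17), where the epithelial laminin chains Lamb3 and Lama3 differed by -0.11 ± 0.06 and -0.14 ± 0.08.

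Of 10 collagen receptors, 6 were below 0 (median -0.25). The integrin chain Itga2 was at 97.1, 91.6 and 68.3 CPM in WT and at 93.5, 147 and 117 in KO (log2 0.48 ± 0.20, edgeR unadjusted p = 0.0562, adjusted p = 0.829). The platelet collagen receptor Gp6 differed by -0.83 ± 0.51. Of 17 tested collagen-degrading enzymes and their inhibitors, 10 were below 0 (median -0.06). The membrane collagenase Mmp14 was at 158, 160.0 and 158 CPM in WT and at 160.0, 189 and 196 in KO (log2 0.20 ± 0.09, edgeR unadjusted p = 0.0624, adjusted p = 0.829). It was the only member of these related lists whose groups did not overlap, by a narrow margin. Such a separation was seen in 9.58% of all genes. The dipeptidase Pepd, which recycles collagen's proline, differed by 0.17 ± 0.10.

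The count tables of CD8+ T cells sorted from PyMT mammary tumors, a short list of genes whose choice is not stated, held 4 chains. Col4a5 had 220, 703 and 172 counts under the label WT and 136, 44 and 71 under the label KO, Col4a6 had 45 to 377 over all 6, Col6a3 18 to 256 and Col25a1 4 to 126. Sums over the listed genes ran from 17407 to 183504 and are not depths, so no comparison was made there.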

How the data were processed

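RNA was isolated from snap-frozen colons with a column kit and libraries were made by a core facility, per the labels' protocols. The values are whole-number read counts per Ensembl gene as the authors deposited them, with no normalisation. STAR, TopHat2, RSEM, HTSeq and DESeq2 and the builds mm10 and GRCm38 are named, without roles or versions, per the submitters' processing notes. Duplicate removal, strand setting and filters are not given in the sources used here, so reads of overlapping genes on opposite strands cannot be told apart.

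Groups came from the sample titles and genotype labels. The 6 colon libraries (7304082 to 8652561 counts) were fitted alone. In R 4.3.3, edgeR 4.0.16 filtered genes (filterByExpr), scaled libraries (TMM) and gave a robust quasi-likelihood test (Benjamini-Hochberg over 17195 genes, threshold 0.05). The SE of a log2 difference is its size over the square root of F, and intervals are 95% intervals covering the spread between these samples only. DESeq2 1.42.0 and limma 3.58.1 (voom with quality weights) were alternatives, with other scalings, filters, a replicate block, a status covariate and each library left out. On simulated data with the colon means and library sizes (16977 genes), 44.9% of 2-fold changes and 70.5% of 4-fold changes were recovered by edgeR, beside 6 false calls. Each gene was drawn independently with its fitted spread, so shifts shared by many genes of a library were not simulated. The changed genes were picked at random, so these shares do not give the recovery for collagen chains. Chi-square per degree of freedom between replicate libraries of the same label was 5.19 or more, so no library was a copy of another under its label. Libraries of different labels were not compared in this way.

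Of the 30263 gene IDs, 30212, all 44 chains among them, matched GENCODE vM21 (GRCm38), the source of positions and lengths. Upstream sequences came from RefSeq (GRCm38.p6) for 35 chains. Values are given in every library for the chain of highest level per kilobase and of smallest p in each class, chains with an unadjusted edgeR p under 0.05, chains over 0.3 counts per exon base and partner chains. Of each related list the 2 genes of smallest p are named. Other named chains were chosen after their values were seen. The members, gene lists and tests were chosen with earlier results of these data known.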

Additional observations from a re-analysis of the deposited data

Results flagged for a closer look

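The summed level of collagen chains had opposite signs in the Xist-high and the Y-linked libraries. The log2 ratio of KO over WT was -0.59 and 0.29 for fibrillar chains, -0.61 and 0.26 for basement membrane chains, -0.85 and 0.42 for other chains, and -0.68 and 0.32 for all chains, each given first for the Xist-high libraries (1 WT, 2 KO) and then for the Y-linked libraries (2 WT, 1 KO). These sums share most of their libraries' features and were not tested. Per chain, the interaction fit called 0 of 38 (smallest edgeR adjusted p = 0.168).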

How the results depend on the processing

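The count of chains past the threshold was 0 under every alternative run. Of all genes, DESeq2 called 18 of 17195 and each other run 0, so these zeros are not particular to the chains. The median log2 difference of all chains stayed between -0.42 (limma-voom) and -0.20 (status covariate) where all libraries were kept, and between -0.64 and -0.04 with 1 library left out. For basement membrane chains the left-out values ran from -0.88 to -0.15, with the lowest without KO replicate 1. With all libraries kept, these chains changed sign: Col6a5 at 0.0071 (total counts as the only scaling) and 0.47 (status covariate), Col27a1 at -0.29, Col17a1 at 1.61 and Col7a1 at 0.12 (all limma-voom), and Col22a1 at 0.0010 (status covariate). With 1 library left out, 14 chains changed sign at least once: Col1a1 ran from -0.30 to 0.054, Col1a2 from -0.28 to 0.010, Col5a3 from -0.57 to 0.15, Col27a1 from -0.46 to 0.44, Col4a1 from -0.23 to 0.039, Col4a3 from -1.30 to 0.010, Col7a1 from -1.66 to 0.54, Col18a1 from -0.22 to 0.084, Col6a5 from -0.86 to 0.51, Col12a1 from -0.71 to 0.15, Col22a1 from -0.20 to 0.19, Col8a1 from -0.43 to 0.20, Col17a1 from -3.09 to 1.44 and Col28a1 from -0.75 to 0.18. The cause was not tested. With the replicate block the median was -0.30, with 33 of 38 chains below 0 and Col27a1 at -0.16. That fit called 0 chains and 0 of 17195 genes. Whether the replicate numbers stand for a pairing is not known. Deviations of same-numbered libraries correlated at -0.022, 0.223 and -0.229, and those of differently numbered libraries at -0.266 to 0.321. With 3 libraries per group these values are tied to each other and cannot settle it. The 6 untested chains had too few counts to pass the filter, and with 3 libraries per group the 95% interval reached a 2-fold change for 27 of 38 chains. DESeq2 gave no adjusted p for Col17a1.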
